A study of Macaca fascicularis with 86 samples.

Results

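The laminin chains, nidogens and integrin subunits of the gastrulating monkey embryo were taken by symbol alone, as every row of the expression table whose symbol names a laminin alpha, beta or gamma chain, a nidogen, or an integrin alpha or beta subunit. They number 38 of 17023 genes: 5 laminin alpha chains (LAMA1 to LAMA5), 4 beta chains (LAMB1 to LAMB4), 3 gamma chains, 2 nidogens, 17 integrin alpha subunits and 7 integrin beta subunits. ITGB3 and ITGAL are not analysed here. RNA was sequenced by Geo-seq, in which small pieces of a cryosection are cut out by laser, here with 5 to 50 cells each, from embryos of the crab-eating macaque (Macaca fascicularis). The 86 regions come from 3 embryos: 15 regions in 4 sections of E18 embryo 1, 35 regions in 6 sections of E18 embryo 2, and 36 regions in 7 sections of a single E20 embryo. The labels number sections and sectors but give no germ layer, no orientation, no treatment, strain, sex or parentage. Stage and embryo cannot be told apart for E20.

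Laminins are cross-shaped proteins of basement membranes, each built of an alpha, a beta and a gamma chain that join inside the cell before secretion. The gamma chain LAMC1 is shared by most laminins, LAMB1 and LAMB2 are its usual beta partners, and the alpha chain decides which receptor a laminin binds. Nidogens bind the gamma chain and tie laminin to collagen IV. Integrins are receptors of an alpha and a beta subunit. ITGB1 pairs with many alpha subunits, among them the laminin receptors ITGA3, ITGA6 and ITGA7, the collagen receptors ITGA1, ITGA2, ITGA10 and ITGA11, and the receptors for fibronectin and related ligands ITGA5, ITGA8 and ITGAV. ITGB4 pairs with ITGA6, and ITGB2 with the leukocyte subunits ITGAD, ITGAM and ITGAX. In the early embryo the epiblast lies on a basement membrane that cells cross as they leave through the primitive streak.

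The values are TPM, a share of the reads scaled for transcript length and for the summed library, so levels of different genes can be set side by side. TPM keeps no read counts, so depth is unknown and no counting interval is given. Genes at a TPM of at least 1 ranged from 7815 to 11516 per region in E18 embryo 1, from 11091 to 13958 in E18 embryo 2 and from 6194 to 10950 in the E20 embryo. The E20 sections fall apart by marker genes. The level of a marker list below is the mean log2(TPM + 1) of its genes in a region. The 18 hypoblast and yolk sac endoderm genes had a median level of 9.42 over the 28 regions of E20 sections 1 to 5 (1.89 to 10.9). In the 8 regions of sections 6 and 7 it was 0.40 (0.21 to 0.79), with APOA4, APOC3, FGA and SERPINA1 at 0 throughout. In the E18 embryos it was 0.83 (0.41 to 4.83) and 1.06 (0.48 to 2.61). The 12 pluripotent epiblast genes had medians of 1.04 in E20 sections 1 to 5, with FOXD3 at 0, 4.85 in sections 6 and 7, and 4.53 and 4.64 in the E18 embryos. For many members, E20 levels are therefore given for both sets of sections. A bulk region cannot tell fewer cells of a type from less RNA per cell, which holds for every level below.

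The shared gamma chain LAMC1 was the most abundant gamma chain in 86 of 86 regions. It ranged from 4.40 to 124 TPM in E18 embryo 1 (median 21.5), from 6.09 to 129 in E18 embryo 2 (20.8), from 23.4 to 104 in E20 sections 1 to 5 (49.3) and from 5.57 to 71.6 in sections 6 and 7 (16.9). The 4 ranges overlapped, but no region of E20 sections 1 to 5 fell to the low values of the others. LAMC3 reached at most 6.98 TPM, in E18 embryo 2.

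Of the beta chains, LAMB1 and LAMB2 took turns as the most abundant. LAMB1 ranged from 2.60 to 101 TPM in E18 embryo 1 (median 41.9), from 10.5 to 287 in E18 embryo 2 (42.9), from 44.7 to 358 in E20 sections 1 to 5 (178) and from 5.73 to 102 in sections 6 and 7 (24.4). The median of E20 sections 1 to 5 was above the highest region of E18 embryo 1 and of E20 sections 6 and 7. LAMB2 had medians of 14 TPM in E18 embryo 1 (6.27 to 67.5), 31.3 in E18 embryo 2 (12.9 to 107), 8.10 in E20 sections 1 to 5 (0 to 34) and 11.1 in sections 6 and 7 (6.17 to 35.8). LAMB1 was the highest beta chain in 10 of 15, 24 of 35, 28 of 28 and 5 of 8 regions of these sets, and LAMB2 in all the others. LAMB3 and LAMB4 reached at most 4.27 and 8.09 TPM. The highest LAMB4 values came from E20 sections 1 to 5, where 9 of 28 regions had at least 1 TPM.

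LAMA5 and LAMA1 were the leading alpha chains in most regions. LAMA5, the alpha chain common in epithelial basement membranes, had medians of 15.1 TPM in E18 embryo 1 (7.76 to 30.9), 22.1 in E18 embryo 2 (13.9 to 41.8), 3.94 in E20 sections 1 to 5 (0.317 to 9.98) and 15.2 in sections 6 and 7 (1.16 to 30.7). The highest region of E20 sections 1 to 5 stood below the lowest of E18 embryo 2 and inside the range of E18 embryo 1. LAMA1, the alpha chain typical of early embryonic laminin, had medians of 14.6 TPM in E18 embryo 1 (0.722 to 62.4), 6.32 in E18 embryo 2 (1.63 to 32), 5.03 in E20 sections 1 to 5 (0 to 16.3) and 3.52 in sections 6 and 7 (0.196 to 8.67). LAMA5 was the highest alpha chain in 8 of 15 regions of E18 embryo 1, 30 of 35 of E18 embryo 2, 12 of 28 of E20 sections 1 to 5 and 8 of 8 of sections 6 and 7, and LAMA1 in 7, 4, 10 and 0.

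The other alpha chains were low and patchy. LAMA3, the alpha chain of a skin-type epithelial laminin, was the highest in 5 regions, all in E20 sections 1 to 5, where it had at least 1 TPM in 18 of 28 regions and reached 8.51. In E20 sections 6 and 7 it had at least 1 TPM in 0 of 8 regions. LAMA2, the alpha chain of muscle and mesenchymal laminins, had medians of 2.64 TPM in E18 embryo 1, 0.907 in E18 embryo 2, 0.438 in E20 sections 1 to 5 and 0.310 in sections 6 and 7, with a highest value of 34.6 in E18 embryo 2. LAMA4, an alpha chain of blood vessel walls, reached 19.5 TPM in E18 embryo 1 and 11.6 in E18 embryo 2, but at most 2.42 in the E20 embryo, where it was at 0 in 20 of 36 regions.

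The nidogens, and NID2 above all, differed widely between regions. NID2 ranged from 0.934 to 197 TPM in E18 embryo 1 (median 22.1), from 0.588 to 417 in E18 embryo 2 (2.87), from 94.6 to 296 in E20 sections 1 to 5 (202) and from 0.493 to 62.9 in sections 6 and 7 (11.1). All 28 regions of E20 sections 1 to 5 stood above all 8 of sections 6 and 7, while each E18 embryo held regions at both ends. NID1 had medians of 9.19 TPM in E18 embryo 1 (0.528 to 44.8), 7.36 in E18 embryo 2 (1.17 to 121), 12.3 in E20 sections 1 to 5 (0.440 to 35.7) and 2.03 in sections 6 and 7 (1.10 to 7.18). NID2 exceeded NID1 in 12 of 15, 15 of 35, 28 of 28 and 4 of 8 regions of these sets.

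**Figure D1:**
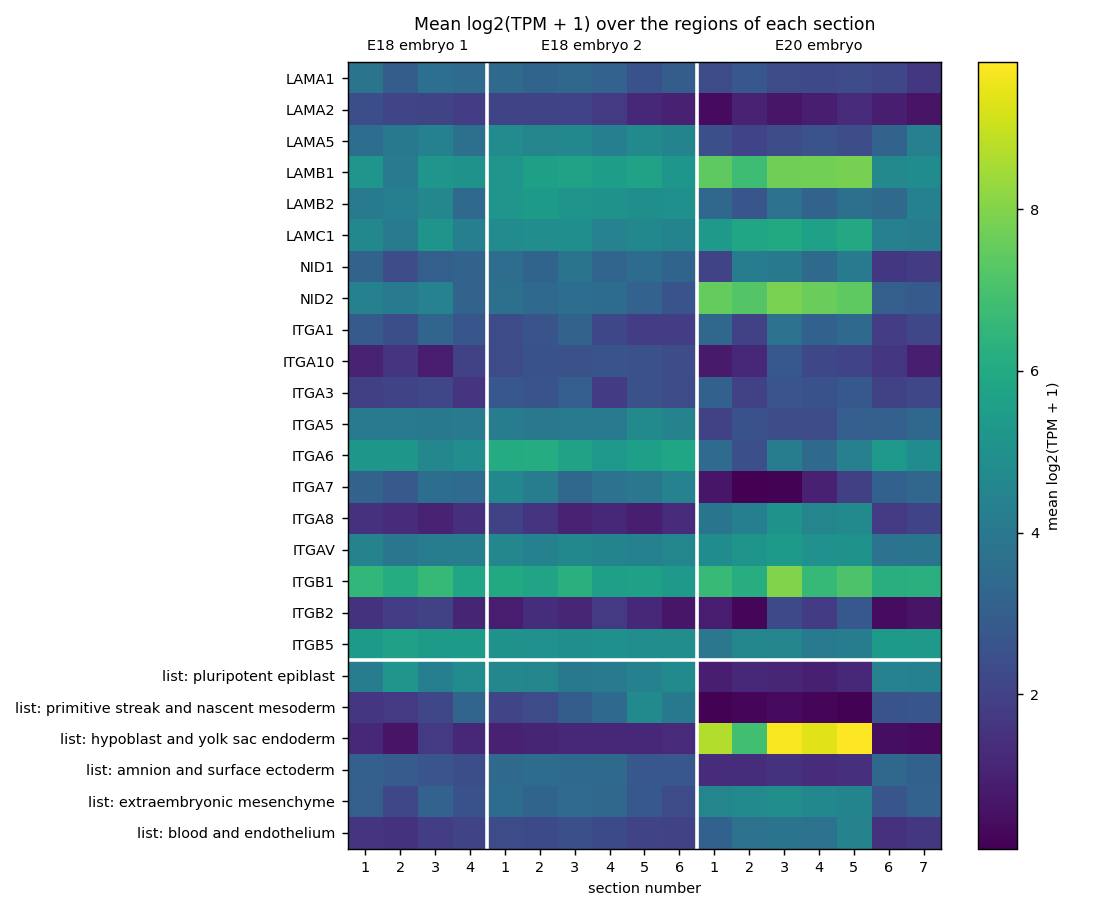
Mean log2(TPM + 1) over the regions of each section (columns, numbered within each embryo) for the 19 genes with a mean of at least 5 TPM in an embryo (upper rows) and for 6 marker lists (lower rows), on a colour scale. LAMB1 and NID2 are brightest, and ITGA7 and LAMA5 darkest, in E20 sections 1 to 5, where the yolk sac endoderm list is also brightest.

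Among integrin beta subunits, ITGB1 led in 71 of 86 regions and ITGB5, a partner of ITGAV, in the other 15. ITGB1 had medians of 82.0 TPM in E18 embryo 1 (27.3 to 189), 61.2 in E18 embryo 2 (10.4 to 220), 154 in E20 sections 1 to 5 (14.2 to 292) and 56.2 in sections 6 and 7 (50.4 to 184). These ranges overlapped throughout. ITGB5 had medians of 40.1 TPM (19.4 to 80.5), 32.2 (6.77 to 103), 19 (2.44 to 52.5) and 33.2 (25.3 to 79.4) in the same sets. ITGB4, ITGB6, ITGB7 and ITGB8 stayed at or under 15 TPM in every region, and each was at 0 in at least 29 of 86.

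Among integrin alpha subunits the leading gene differed between the sets. The laminin receptor ITGA6 led in 25 of 35 regions of E18 embryo 2 and 7 of 8 of E20 sections 6 and 7, but in 1 of 28 of E20 sections 1 to 5. There ITGAV, a receptor for vitronectin and fibronectin, led in 20 of 28. In E18 embryo 1, ITGA5, ITGA6 and ITGA7 led in 4 regions each. ITGA6 had medians of 28.7 TPM in E18 embryo 1 (6.92 to 75.2), 55.4 in E18 embryo 2 (21.5 to 164), 10.4 in E20 sections 1 to 5 (0 to 55.5) and 35.5 in sections 6 and 7 (16.2 to 71.9). ITGAV had medians of 14.1 TPM (6.91 to 50.7), 19.8 (9.34 to 89.8), 33.7 (11.1 to 84.4) and 11.5 (6.95 to 32.1) in the same order.

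ITGA7, a laminin receptor best known from muscle, differed by orders of magnitude between regions. It ranged from 0.235 to 123 TPM in E18 embryo 1 (median 5.07), from 1.57 to 138 in E18 embryo 2 (14.6), from 0 to 16 in E20 sections 1 to 5 (0.145) and from 0.737 to 36.8 in sections 6 and 7 (8.35). It was at 0 in 13 of the 28 regions of E20 sections 1 to 5 and nowhere else. ITGA8, a receptor for nephronectin, ran the other way, with medians of 1.22 TPM in E18 embryo 1 (0 to 21.6), 0.909 in E18 embryo 2 (0 to 11.7), 18.7 in E20 sections 1 to 5 (0.222 to 62.2) and 4.17 in sections 6 and 7 (0 to 16.9). ITGA5, the fibronectin receptor, had medians of 22.3 TPM (2.64 to 47.7), 24.9 (3.11 to 64.0), 3.20 (0.287 to 14.8) and 7.09 (4.15 to 25.5). Its ranges overlapped, with the E20 medians below both E18 medians.

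The collagen receptors and ITGA3 were lower and uneven. ITGA1 had medians of 4.03 TPM in E18 embryo 1, 2.35 in E18 embryo 2, 8.19 in E20 sections 1 to 5 and 1.93 in sections 6 and 7, and it reached 53.5 in E18 embryo 1. ITGA2 had medians of 0.833, 1.52, 3.29 and 1.14 TPM in these sets and ITGA10 of 1.76, 4.47, 1.60 and 1.39. ITGA11 had at least 1 TPM in 31 of 35 regions of E18 embryo 2 and in 0 of 28 of E20 sections 1 to 5. ITGA3 had medians of 2.90, 4.66, 4.83 and 2.13 TPM, with the highest value, 31.6, in E20 sections 1 to 5. ITGA4, ITGA9, ITGA2B and ITGAE reached at most 12.8 TPM.

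**Figure D2:**
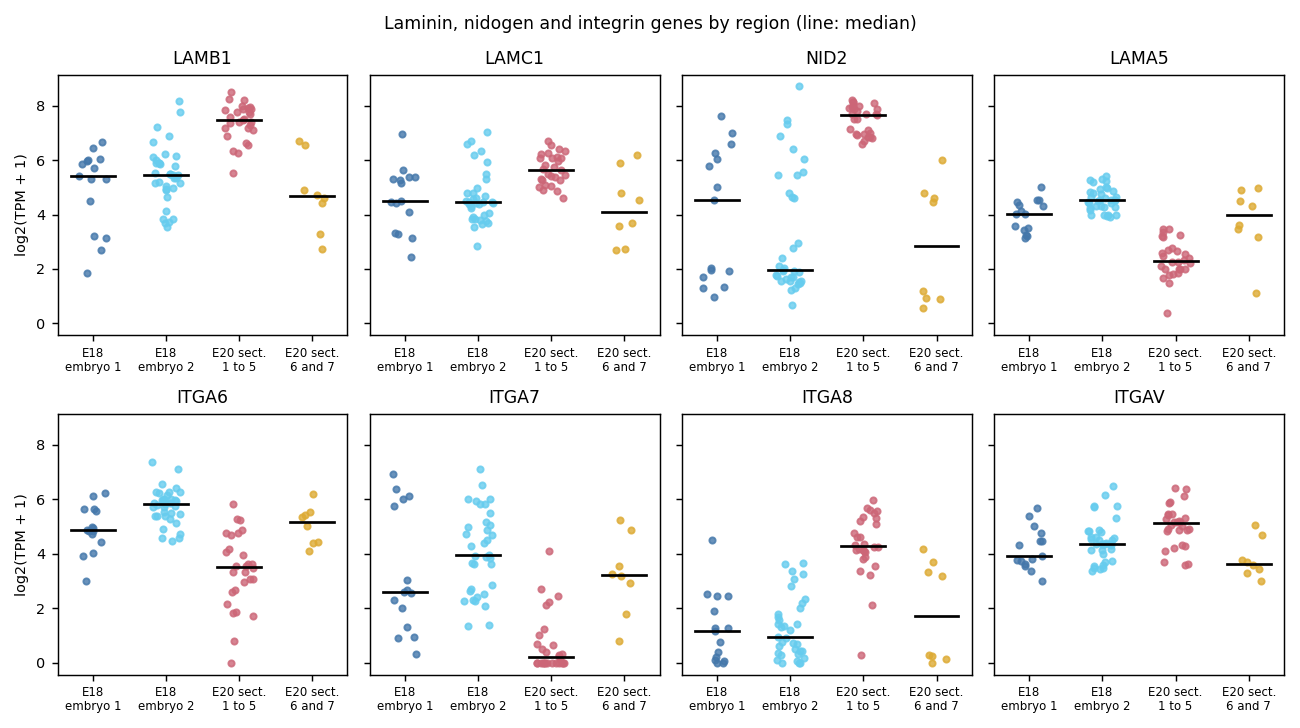
Each region's log2(TPM + 1) for 8 genes, with regions of E18 embryo 1, E18 embryo 2, E20 sections 1 to 5 and E20 sections 6 and 7 as separate columns of points and a line at each median. NID2 and LAMB1 sit high in all 28 regions of E20 sections 1 to 5, and ITGA7 sits near 0 in most of them. The 8 regions of sections 6 and 7 reach slightly below the E18 ranges of NID2 and stay under its highest E18 values.

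The first contrast set the E20 embryo against the pair of E18 embryos. In the E20 embryo NID2, ITGA8 and LAMB1 were higher, and ITGA7, ITGA5, LAMA5 and ITGA6 were lower. Log2(TPM + 1) values were averaged over the regions of each embryo and compared with limma, for the 36 of 38 genes that passed a filter of 1 TPM in 10 regions, with p-values adjusted over all 15216 genes that passed. ITGAD and ITGAX did not pass. At an adjusted p of 0.05, 3 of 36 were higher and 4 lower, against 2.64% higher and 8.75% lower of all genes tested. The median difference of the 36 was -0.34 and that of all genes -0.44, so a gene at no difference stood above the median gene. With 1 embryo at E20, the fit takes its spread from the E18 pair alone (1 residual degree of freedom, moderated over genes), so its p-values do not measure how E20 embryos vary and the calls describe this E20 embryo.

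NID2 had mean log2(TPM + 1) levels of 4.00 and 3.26 in the E18 embryos and 6.47 at E20, a difference of 2.84 ± 0.45 (SE; adjusted p = 5.23e-08). ITGA8 had levels of 1.27 and 1.29 against 3.79, a difference of 2.51 ± 0.74 (adjusted p = 0.0109). LAMB1 had levels of 4.94 and 5.47 against 6.81, a difference of 1.60 ± 0.42 (adjusted p = 0.00304). These 3 belong to different roles: a laminin linker, an integrin alpha subunit and a laminin chain. ITGA7 differed by -2.46 ± 0.62 (adjusted p = 0.00183), ITGA5 by -1.65 ± 0.52 (0.0193), LAMA5 by -1.59 ± 0.51 (0.0226) and ITGA6 by -1.58 ± 0.44 (0.00581). Each of the 7 kept its direction against either E18 embryo alone. LAMC1, at 0.74 above, and ITGB1, at 0.60 above, did not pass the test.

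The stage differences were larger with E20 sections 1 to 5 alone. There NID2 differed by 3.85, ITGA8 by 3.06, LAMB1 by 2.20, ITGA7 by -3.02, ITGA6 by -1.95, LAMA5 by -1.90 and ITGA5 by -1.84. With sections 6 and 7 alone the same genes differed by -0.70, 0.60, -0.46, -0.50, -0.29, -0.50 and -0.97, and limma called 0 members (2 at an unadjusted p under 0.05). NID2 and LAMB1 thus changed sign. Marker lists moved with this split and their part in it was not tested. Of the yolk sac endoderm list, 16 of 18 genes were higher at E20 and 0 lower. The 15 extraembryonic mesenchyme genes (6 higher, 0 lower) had a median level of 4.81 in sections 1 to 5 (2.12 to 6.28), with TWIST1 at 0, and of 2.50 in sections 6 and 7 (0.39 to 6.02). In the E18 embryos their medians were 2.01 (0.62 to 6.58) and 1.86 (1.14 to 7.41). Of the epiblast list, 10 of 11 tested genes were lower at E20.

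With medians instead of means over regions limma called 0 members for the stage (5 at an unadjusted p under 0.05), and quantile normalization, which moved the median of all genes to -0.06, gave 5 higher and 1 lower. Under it ITGA7 remained lower at -1.99 (adjusted p = 0.0194), while ITGA5 at -1.02, ITGA6 at -1.32 and LAMA5 at -1.07 no longer passed (adjusted p = 0.200, 0.0864 and 0.180). Removing the 13 mitochondrially encoded genes and rescaling, which moved the median of all genes to -0.60, left 3 members called. With single regions and an estimated correlation within embryos, NID2 (adjusted p = 0.0540) and LAMB1 (0.0713) did not pass.

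**Figure D3:**
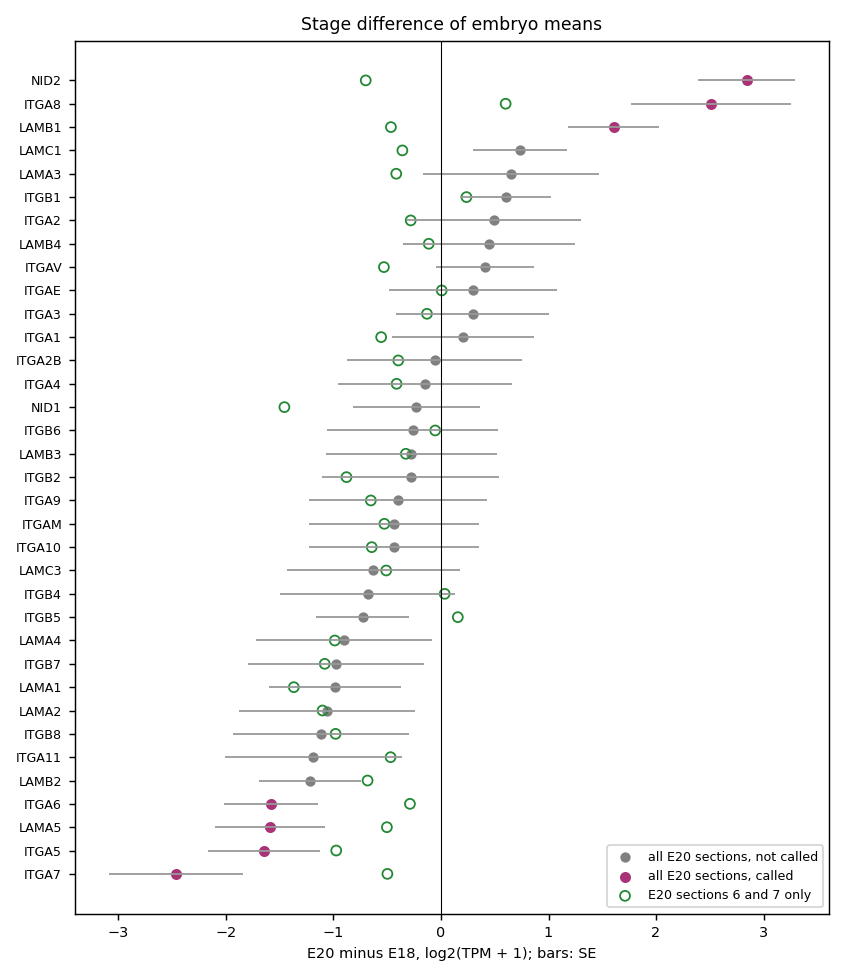
Difference of embryo means, E20 minus E18, on the log2(TPM + 1) scale for 35 of the 36 genes tested, with bars of 1 SE; coloured points passed the test and open circles use E20 sections 6 and 7 alone. NID2 stands at 2.84 and ITGA7 at -2.46 with all sections, while the open circles of the 7 called genes lie between -0.97 and 0.60.

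Within E20 sections 6 and 7 the genes differed sharply between sectors, and the lowest and highest sectors were alike in both sections for several of them. LAMB1 read 5.73, 23.5, 25.3 and 93.3 TPM in sectors 1 to 4 of section 6 and 8.67, 28.9, 20.3 and 102 in section 7. LAMC1 read 5.73, 11, 26.7 and 71.6 TPM in section 6 and 5.57, 22, 11.8 and 57.8 in section 7. For both genes sector 1 was lowest and sector 4 highest in each section. ITGB1 read 50.4, 52.7, 54.7 and 184 TPM, then 51.4, 57.7, 77.6 and 151, again with sector 4 on top. ITGA7 ran opposite, at 36.8, 8.53, 8.18 and 0.737 TPM, then 28.1, 10.8, 6.67 and 2.49. NID2 read 0.880, 0.493, 23.4 and 62.9 TPM, then 0.895, 20.9, 1.31 and 26.8. Its middle sectors thus changed places between the sections, as did those of LAMB1 and LAMC1.

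The sectors that led differed in marker genes. A marker score is the mean, over a list's genes, of the z-scored log2 value within an embryo, scaled to an SD of 1. Sector 4 of sections 6 and 7 had amnion scores of 3.43 and 3.35 and mesenchyme scores of 1.17 and 1.32, and sector 1 had mesenchyme scores of -2.29 and -2.08 and epiblast scores of 2.10 and 2.52. Sectors 2 and 3 also had high epiblast scores, at 1.66 and 2.22 in section 6 and 2.15 and 1.86 in section 7. They traded streak and amnion scores between the sections. In section 6 sector 2 had a streak score of 2.93 and sector 3 an amnion score of 1.97. In section 7 sector 2 had an amnion score of 1.71 and sector 3 a streak score of 4.40. The latter, the highest streak score of the E20 embryo, came with its highest ITGA5 value, 25.5 TPM. What part these cell types have in the sector values was not tested.

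The section trend asked whether genes changed along the numbered sections of an embryo, as the slope of log2(TPM + 1) from its first to its last section with embryo as a block. NID2 fell along the sections by 2.34 ± 0.63 log2 units (SE; limma adjusted p = 0.00910). LAMC3, a low gamma chain, fell by 0.49 ± 0.17 (adjusted p = 0.0462). No member rose, so 0 of 36 were higher and 2 lower, against 8.81% higher and 1.89% lower of all genes tested; the median slope was -0.14 for members and 0.11 for all genes. By embryo the slope of NID2 was -1.01 and -0.98 at E18 (embryos 1 and 2) and -4.31 at E20.

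The section calls did not hold without single embryos. Without the E20 embryo limma called 0 members (2 at an unadjusted p under 0.05), and NID2 had a slope of -0.99. LAMC3 had a slope of -0.06 without E18 embryo 2 (adjusted p = 0.817) and of -0.86 without the E20 embryo (0.276). With the E20 embryo split into a block for each set of sections it also called 0 (2 unadjusted), and NID2 had a slope of -0.76. Over the E20 sections NID2 had median values of 179, 113, 238, 205 and 137 TPM in sections 1 to 5 and of 12.1 and 11.1 in sections 6 and 7. Along the same axis 13 of 18 yolk sac endoderm genes fell, and 7 of 11 epiblast and 10 of 15 primitive streak genes rose.

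Whether the section slope differed among embryos was tested with a moderated F test, which called 2 of 36 members, ITGA6 (adjusted p = 0.0168) and LAMA5 (0.0324), against 10.1% of all genes tested. ITGA6 had slopes of -0.54 and -0.38 at E18 and of 1.96 at E20. LAMA5 had slopes of 0.14, -0.16 and 1.51. In both genes the E20 slope stood apart, as did the medians of sections 1 to 5 and 6 to 7 given above.

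The sector trend asked the same within a section, from its first to its last sector. The labels do not say that sector numbers run the same way in each section. In E18 embryo 1 the highest mesenchyme score was in sector 1 of sections 1 and 3 (1.78 and 1.34) but in sector 4 of section 4 (1.82). NID2 rose by 2.21 ± 0.54 log2 units (SE; limma adjusted p = 0.0131), ITGB1 by 1.18 ± 0.33 (0.0314), the collagen receptor ITGA2 by 1.10 ± 0.30 (0.0269) and ITGA9, a receptor for tenascin and other ligands, by 0.81 ± 0.25 (0.0459). That is 4 of 36 higher and 0 lower, against 2.48% and 0.762% of all genes tested, with a median slope of 0.48 for members and 0.07 for all genes. Of the marker lists, 9 of 15 mesenchyme, 8 of 14 blood and endothelium and 3 of 13 amnion genes rose along the sectors, and 4 of 11 epiblast genes fell; their part was not tested.

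The slopes by embryo were unequal. NID2 had sector slopes of 0.55 and 4.42 at E18 (embryos 1 and 2) and of 0.98 at E20, and ITGB1 of -0.74, 1.69 and 1.64. The ITGB1 slope was thus negative in E18 embryo 1 alone. The sector with the highest mesenchyme score changed between sections there, but also in the E20 embryo. In the latter it was sector 7 of section 2 (1.05) and sector 1 of section 5 (0.96). The part of this order in the slopes was not tested. Without E18 embryo 2 limma called 0 members (4 at an unadjusted p under 0.05), without E18 embryo 1 it called 13, and without the E20 embryo 2. ITGA9 lost its call without the E20 region with the fewest genes detected (section 2 sector 3; adjusted p = 0.051) and in several other settings.

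Marker scores gave the regions an axis that does not rest on the numbering of sections. Each gene was regressed on each of 6 scores with embryo as a block, and slopes are log2 units per SD of a score within an embryo. No laminin, nidogen or integrin gene is in any of the lists. Beyond the block, these p-values take regions as independent, though neighbours share tissue. The scores overlap: over the 86 regions the mesenchyme score had Spearman correlations of 0.70 with the blood score, 0.58 with the amnion score and -0.63 with the epiblast score.

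With the extraembryonic mesenchyme score (LUM, DCN, POSTN and collagen genes among its 15), 21 members rose and 1 fell, the largest count for a score here. Of all genes tested 14.6% rose and 15.6% fell, and the median slope was 0.29 for members and -0.02 for all genes. NID2 rose by 1.89 ± 0.13 (SE; adjusted p = 4.61e-22), ITGA1 by 1.31 ± 0.11, ITGA8 by 1.13 ± 0.10, NID1 by 0.85 ± 0.12, LAMC1 by 0.77 ± 0.08 and LAMB1 by 0.75 ± 0.12. The members that rose thus held both nidogens and 7 laminin chains, with LAMA1 at 0.48, LAMA2 at 0.64, LAMA3 at 0.31, LAMA4 at 0.48 and LAMB2 at 0.42. Of the integrins, ITGA3 rose by 0.67, ITGAV by 0.50 and ITGB1 by 0.43. ITGA7 fell by 1.21 ± 0.13 (adjusted p = 3.19e-13).

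For the mesenchyme score the direction held in each embryo for the leading genes. NID2 had slopes of 2.26 and 2.19 at E18 (embryos 1 and 2) and of 1.47 at E20, LAMC1 of 0.92, 0.72 and 0.75, and ITGA7 of -1.68, -1.29 and -0.95. When the 3 embryo slopes were tested against 0, so that the embryo was the replicate, 9 members passed: ITGA1, ITGA7, ITGA8, ITGAV, LAMB1, LAMB2, LAMC1, NID1 and NID2. Without E18 embryo 2, which holds 35 of the regions, 12 members were called. With the 6 scores in 1 model 10 members were called, among them ITGA3 at 1.54, ITGA8 at 1.08, NID2 at 0.78 and LAMC1 at 0.46, while LAMB1 stood at -0.07, LAMA1 at -0.19 and LAMA2 at -0.32.

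Single sections at the extremes show the contrast. The sections below hold the highest values of their embryos for several genes, so they are not typical. In section 1 of E18 embryo 2, sector 4 had a mesenchyme score of 2.05 and an epiblast score of -1.57, and sector 1 scores of -0.83 and 1.53. Sector 4 also had a blood score of 2.35, the highest of that embryo, and an amnion score of 1.42. In sector 1 these were -0.83 and -0.54. NID2 was 417 TPM in sector 4 and 2.87 in sector 1, NID1 121 and 6.58, LAMB1 147 and 12, LAMC1 129 and 20.7, ITGA1 41.9 and 1.78, and ITGAV 89.8 and 28. ITGA7 was 1.64 TPM in sector 4 and 138 in sector 1, and ITGA6 34.3 and 164. In section 3 of E18 embryo 1, sector 1 had a mesenchyme score of 1.34 and sector 3 of -0.72. In sectors 1 and 3 NID2 was 94.2 and 1.52 TPM, LAMC1 124 and 8.76, LAMA1 62.4 and 2.67, and ITGA7 0.235 and 123.

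Whether the mesenchyme slopes differed among embryos was tested as well. The F test called 3 of 36 members, against 2.08% of all genes tested: LAMA2 (adjusted p = 1.09e-05), ITGA3 (0.00208) and ITGB8 (0.0441). LAMA2 had slopes of 1.14 and 1.12 at E18 and of -0.03 at E20, ITGB8, a partner of ITGAV, of 0.75, 0.43 and -0.00, and ITGA3 of -0.04, 0.33 and 1.29. So LAMA2 and ITGB8 followed the score in the E18 embryos, where ITGA3 was flat or weak.

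With the pluripotent epiblast score (NANOG, SOX2 and TDGF1 among its genes), ITGA7 rose by 1.35 ± 0.11 (SE; adjusted p = 6.88e-18), ITGA6 by 0.57 ± 0.10 (2.48e-06) and LAMA5 by 0.21 ± 0.08 (0.0296). These are 2 laminin receptors and the alpha chain that was the highest in most regions. The 15 members that fell were led by NID2 at -1.96 ± 0.12, LAMB1 at -1.11 ± 0.08, ITGA1 at -0.89 ± 0.15, ITGA8 at -0.89 ± 0.12, NID1 at -0.76 ± 0.13 and LAMC1 at -0.70 ± 0.08. Of all genes tested 25% rose and 13.7% fell, and the median slope was -0.15 for members and 0.05 for all genes. ITGA7 had slopes of 1.81, 1.39 and 1.12 in the 3 embryos, ITGA6 of 0.65, 0.40 and 0.70, and LAMA5 of -0.15, 0.11 and 0.46, so the LAMA5 slope was negative in E18 embryo 1. LAMA5 stood at -0.015 with section within embryo as a block (adjusted p = 0.937), at -0.018 with the E20 embryo split by its sets of sections (0.920) and at 0.04 without the E20 embryo (0.765), so its call did not hold in these fits.

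With the embryo slopes tested against 0, limma called 0 members for the epiblast score (15 at an unadjusted p under 0.05). With the 6 scores in 1 model 5 rose and 3 fell, ITGA7 by 1.03 and ITGA6 by 0.81 among the first and LAMB1 by -1.08, NID2 by -1.0 and LAMA1 by -0.72 as the others. ITGA8 stood at 0.050 in that model.

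**Figure D4:**
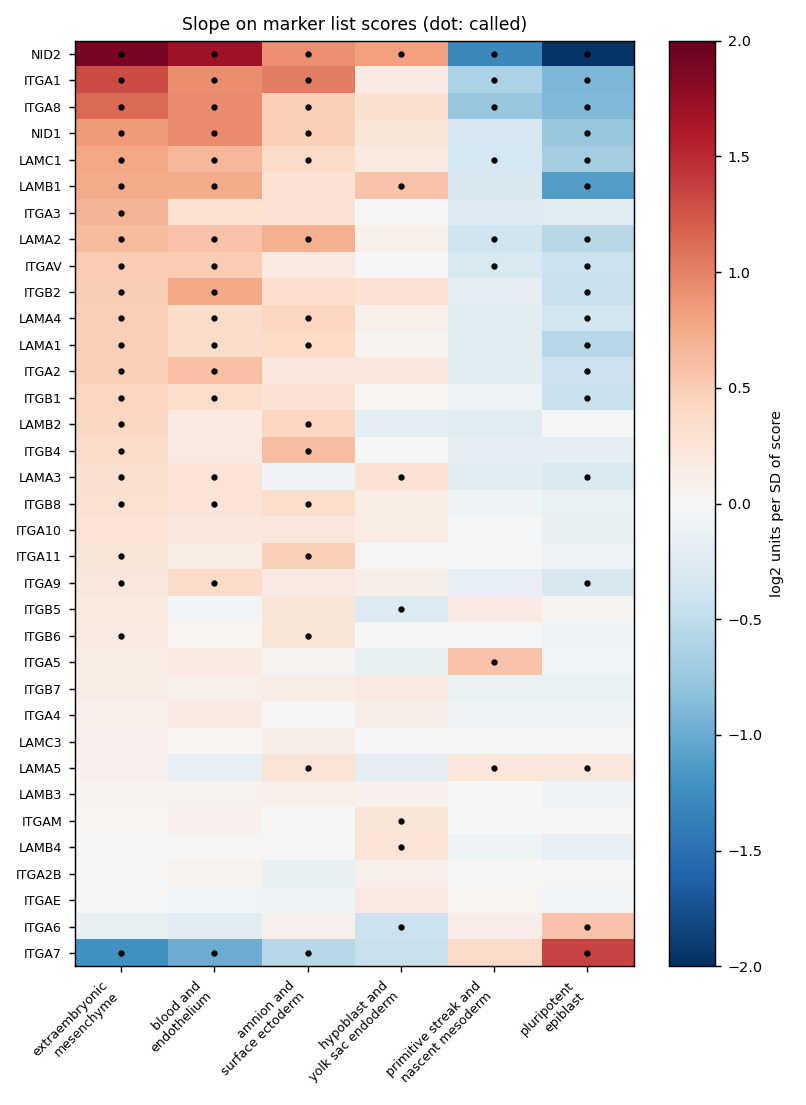
Slopes of 35 of the 36 genes tested (rows, ordered by the mesenchyme score) on 6 marker scores (columns), in log2 units per SD of the score within an embryo, red for positive and blue for negative, with a dot where the adjusted p passed 0.05. NID2 is at 1.89 on mesenchyme and -1.96 on epiblast, ITGA7 at -1.21 and 1.35, and ITGA5 has its dot on the streak score.

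With the primitive streak and nascent mesoderm score (TBXT, MIXL1, EOMES and others), ITGA5 rose by 0.57 ± 0.11 (SE; adjusted p = 3.88e-05), with slopes of 0.59, 0.64 and 0.49 in the 3 embryos. The list had a median level of 0.16 in E20 sections 1 to 5, with 7 of its 15 genes at 0 throughout. In sections 6 and 7 the median was 2.11, so E20 slopes on this score also carry the difference between these sets. LAMA5 at 0.23 ± 0.08 (0.0309) also rose, and NID2 at -1.29 ± 0.20, ITGA8 at -0.76 ± 0.13, ITGA1 at -0.63 ± 0.17, LAMA2 at -0.40 ± 0.12, LAMC1 at -0.35 ± 0.10 and ITGAV at -0.31 ± 0.09 fell. That is 3 of 36 up and 6 down, against 18.5% up and 4.76% down of all genes tested. After quantile normalization 1 rose and 13 fell: ITGA5 remained at 0.55, while LAMA5 at 0.14 did not pass. ITGA5 was highest in E18 embryo 2 at section 5 sector 6, with 64.0 TPM and the highest streak score of that embryo, 1.96. With the 6 scores in 1 model ITGA5 stood at 0.82 (adjusted p = 1.17e-08), LAMC1 at 0.061 and ITGA1 at 0.016, so the last pair changed sign. With section within embryo as a block 5 of the 9 calls were left, and LAMA5 at 0.09, LAMC1 at -0.22 and ITGAV at -0.23 did not pass. With embryo slopes tested against 0 limma called 0 members (7 unadjusted).

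With the amnion and surface ectoderm score (ISL1, TFAP2A and GABRP among its genes), 15 members rose and 1 fell, against 12.9% and 5.88% of all genes tested. ITGA1 rose by 1.03 ± 0.14 (SE; adjusted p = 1.44e-08), NID2 by 0.91 ± 0.22, LAMA2 by 0.72 ± 0.10, ITGB4 by 0.62 ± 0.07 (7.73e-11) and ITGA11 by 0.48 ± 0.08. ITGB4, the hemidesmosome subunit, had slopes of 0.55, 0.63 and 0.65 in the 3 embryos. NID2 had slopes of 1.79 and 1.98 at E18 and of -0.47 at E20. ITGB4 read at most 15 TPM, in E18 embryo 2 at section 2 sector 5, which had that embryo's highest amnion score, 2.21. In the E20 embryo ITGB4 was highest in sector 4 of section 7 (14.1 TPM) and of section 6 (5.02), which have the highest amnion scores there. ITGA7 fell by 0.55 ± 0.17.

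With the 6 scores in 1 model the amnion slopes were 0.72 for LAMA2, 0.68 for ITGB4, 0.61 for ITGA11 and 0.45 for ITGA1. Without E18 embryo 2 the amnion count was 9, and with embryo slopes tested against 0 limma called 0 (8 unadjusted).

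With the blood and endothelium score, 16 members rose and 1 fell, against 12% and 10.4% of all genes tested. NID2 rose by 1.70 ± 0.16 (SE), NID1 by 0.95 ± 0.11, ITGA8 by 0.95 ± 0.12, ITGA1 by 0.93 ± 0.15, ITGB2 by 0.75 ± 0.12, LAMB1 by 0.75 ± 0.12, LAMC1 by 0.67 ± 0.09 and ITGA2, a collagen receptor of platelets, by 0.61 ± 0.10. ITGA7 fell by 0.99 ± 0.15. The score moved with the mesenchyme score, and in the model with all 6 scores 2 calls were left, ITGB2 at 0.83 (adjusted p = 0.00296) and NID1 at 0.68 (0.0157), while ITGA7 stood at 0.0029. ITGA2B, the platelet alpha subunit, did not pass and reached 12.8 TPM. Without E18 embryo 2 the count was 9, and with embryo slopes tested against 0 limma called 0 (15 unadjusted).

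With the hypoblast and yolk sac endoderm score, NID2 rose by 0.82 ± 0.22 (SE; adjusted p = 0.00749), LAMB1 by 0.57 ± 0.13 (0.000873), LAMA3 by 0.29 ± 0.09 (0.0191), LAMB4 by 0.26 ± 0.07 (0.00883) and ITGAM by 0.25 ± 0.06 (0.00342). ITGA6 fell by 0.43 ± 0.11 and ITGB5 by 0.27 ± 0.09. That is 5 of 36 up and 2 down, against 5.52% and 11.1% of all genes tested. NID2 had slopes of 0.38, 0.16 and 1.63 in the 3 embryos, LAMB1 of 0.50, -0.04 and 1.19, and ITGA6 of -0.31, -0.11 and -0.79, so the E20 embryo gave most of each. Without the E20 embryo limma called 0 members (3 at an unadjusted p under 0.05), and with the E20 embryo split in the same way 1. ITGAM stood at 0.12 (adjusted p = 0.124) without E18 embryo 1 section 3 sector 5.

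The endoderm slopes differed among embryos for 5 of 36 members by the F test, against 11.5% of all genes tested. Each score is scaled within its embryo, so 1 SD covers unlike ranges of the list level. That level spanned 0.48 to 2.61 in E18 embryo 2 and 0.21 to 10.9 at E20, so these slopes are in unlike units. LAMB1 (adjusted p = 0.000593) is given above. LAMA5 (0.00978) had slopes of 0.16, 0.06 and -0.54, ITGA11 (0.0434) of 0.37, 0.14 and -0.38, and ITGAM (0.000213) of 0.89, 0.16 and 0.07. LAMA5 and ITGA11 thus had negative slopes in the E20 embryo alone.

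The leukocyte subunits were near 0 in most regions. ITGB2 had medians of 0.602 and 0.676 TPM at E18 (embryos 1 and 2) and of 0.698 at E20, and ITGAM was at 0 in 48 of 86 regions. The highest ITGB2 values were 47.0 TPM in E18 embryo 1 section 2 sector 1 and 29.7 in its section 3 sector 5. The latter region also had the highest ITGAM value, 12.2 TPM, with TYROBP at 175, CD14 at 36.2 and PTPRC at 4.32 TPM, and the highest level of the 13 leukocyte and decidual genes, 3.55 against medians of 0.73 to 0.97 in the embryos. The former region had TYROBP at 0, but CD14 at 7.55 and PTPRC at 2.21 TPM, and a level of that list of 1.16. It also had the placental hormone subunit CGA at 4737 TPM, the highest of all regions. Among these subunits ITGAD had at least 1 TPM in 4 regions and ITGAX in 5, all in E18 embryo 2.

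The laminin chains were also set against each other and against their receptors, as Spearman correlations over the regions of each embryo. Of 38 planned pairs 35 had both genes. The points share libraries and cell mixtures, so the values are a description without a test. NID2 with LAMC1 was the only pair at 0.5 or above in all 3 embryos, at 0.86 and 0.59 at E18 (15 and 35 regions of embryos 1 and 2) and 0.61 at E20 (36 regions). NID1 with LAMC1 had 0.80, 0.46 and 0.65. LAMA1, LAMB1 and LAMC1 ran together in the E18 embryos but less so in the E20 embryo: LAMB1 with LAMC1 had 0.84, 0.79 and 0.25, and LAMA1 with LAMC1 0.86, 0.68 and 0.20. LAMA5 with LAMC1 had 0.62, -0.06 and -0.07.

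Receptors differed in how they ran with LAMC1. ITGB1 had rank correlations with it of 0.69, 0.78 and 0.43, the collagen receptor ITGA1 of 0.85, 0.43 and 0.49, and the laminin receptor ITGA3 of 0.26, 0.49 and 0.33. ITGA7 was negative throughout, at -0.79, -0.68 and -0.46, and ITGA6 was at -0.62, -0.10 and 0.07. Of alpha subunits with ITGB1, ITGAV had 0.50, 0.62 and 0.44 and ITGA1 0.58, 0.43 and 0.47, whereas ITGA7 had -0.73, -0.66 and -0.01. ITGA6 with ITGB4 had -0.41, -0.25 and 0.58. So the laminin receptor ITGA7 ran against LAMC1 in each embryo. After quantile normalization 3 pairs stood at 0.5 or above in all 3 embryos.

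**Figure D5:**
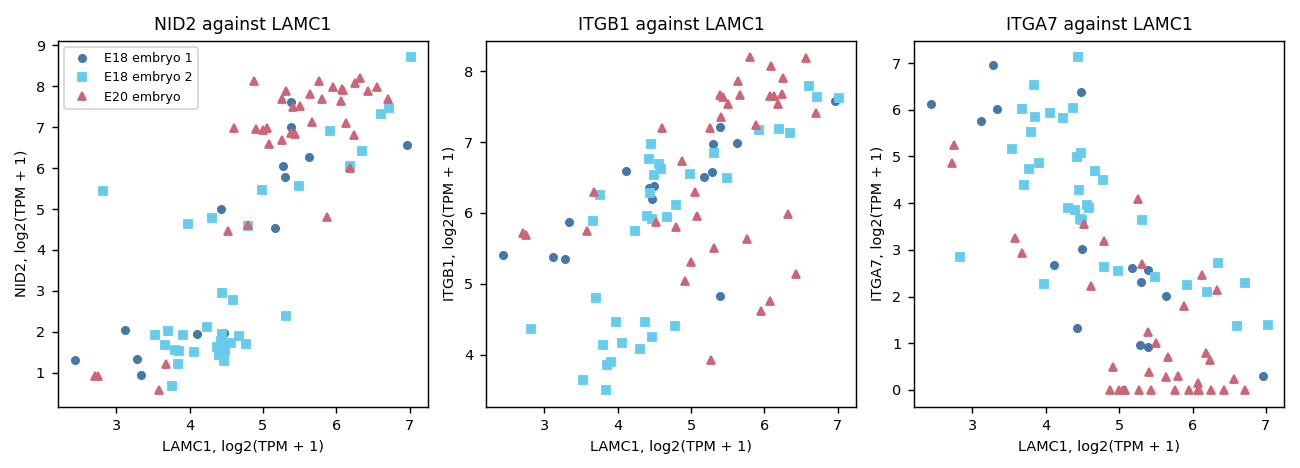
NID2, ITGB1 and ITGA7 (vertical axes) against LAMC1 (horizontal axis) in each region, all as log2(TPM + 1), with a symbol for each embryo. NID2 rises with LAMC1 in all 3 embryos (Spearman 0.59 to 0.86), ITGB1 less evenly (0.43 to 0.78), and ITGA7 falls (-0.79 to -0.46).

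Other genes of the pathway were read from 4 lists. Their stage differences use all E20 sections, and the sets of sections are not given apart for them. The shares of all genes tested were, as above, 2.64% higher and 8.75% lower for the stage, 14.6% and 15.6% for the mesenchyme score and 25% and 13.7% for the epiblast score. Of 20 tested components of basement membranes other than laminins and nidogens, SPARC, a collagen-binding protein, was higher at E20 by 1.42, and FBLN2 by -2.67, AGRN by -1.88, PXDN by -1.84 and COL18A1 by -1.69 were lower. With the mesenchyme score 11 of 20 rose and 2 fell, among them NPNT, the nephronectin that ITGA8 binds, by 1.66, SPARC by 1.47 and the collagen IV chains COL4A1 by 1.05 and COL4A2 by 0.87. With the epiblast score 3 rose and 7 fell, with COL4A1 at -1.02 and COL4A2 at -0.81. NPNT also rose along the sectors, by 2.11, and SPARC by 1.48. COL4A5 rose with the mesenchyme score by 0.33 and fell with the epiblast score by 0.46, while COL4A3 (0.02 and -0.05) and COL4A6 (0.01 and -0.09) did not pass on either. So 3 of the 5 tested collagen IV chains passed on both scores, with the signs of LAMB1, LAMC1 and the nidogens, while COL4A3 and COL4A6 stood near 0.

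Of 9 laminin receptors outside the integrins, SDC2, a syndecan, and GPC3, a glypican, were each higher at E20 by 2.50 and fell along the sections by 1.25 and 1.76, and 0 were lower at E20. With the mesenchyme score 2 of 9 rose, among them DAG1, the dystroglycan core, by 0.39, and 1 fell, SDC1 by 0.62. With the epiblast score 2 rose, SDC1 by 0.52 and BCAM, a receptor for LAMA5, by 0.28, and 3 fell.

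Of 23 other integrin ligands, 5 were higher and 2 lower at E20: COL3A1 by 3.76, VTN, the vitronectin that ITGAV binds, by 3.68, POSTN by 2.62 and EDIL3 by 2.24 among the first, and SPP1 by -2.29 and MFGE8 by -1.29 as the second. With the mesenchyme score 14 rose and 0 fell, led by COL3A1, POSTN and COL1A2, which are marker genes of that score and were tested against it without themselves. VTN rose with the endoderm score by 1.39 and FN1, the fibronectin that ITGA5 binds, by 0.85, whereas ITGA5 did not pass there.

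Of 29 tested genes that link integrins to actin, 1 was higher and 5 lower at E20, against 2.64% and 8.75% of all genes tested. FERMT1, an epithelial kindlin, was lower by -2.37, ACTN4 by -2.28, FLNA by -1.91 and ZYX by -1.85, and KANK1 was higher by 1.48. FERMT1 rose with the epiblast score by 1.06 and with the streak score by 0.71, and fell with the mesenchyme score by 0.59, as ITGA7 did on the epiblast and mesenchyme scores. With the mesenchyme score 12 of 29 rose and 2 fell, TGFB1I1 by 0.86, TNS3 by 0.85 and PARVA by 0.83 among them. The called genes of this list lay on both sides, as did the integrin alpha subunits.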

How the data were processed

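The authors deposited one table of TPM values, transcript abundances scaled for length and library size, with 1 column per region. The submitters' processing notes name fastp, HISAT2 and StringTie without versions or settings. Which build and annotation were used is not given in the sources used here, and coordinates and sequences are left out. Columns were matched to samples by stage, embryo, section and sector, with 0 unmatched and 0 identical, and summed to between 495547 and 777987 TPM. Depth is unknown.

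Log2(TPM + 1) values were fitted for the 15216 genes at 1 TPM or more in at least 10 regions, in R 4.3.3 with limma 3.58.1 (moderated statistics, variance trend) and Benjamini-Hochberg adjustment over all of them at 0.05. For the stage, embryo means were compared, with 1 residual degree of freedom. Section and score models had embryo as a block, and the sector model section within embryo. Their p-values measure the spread between regions of 3 embryos, and the estimated correlation of regions within an embryo was 0.120. Quantities per section and correlations came from pandas 2.3.3 and scipy 1.17.1, and pictures from matplotlib 3.10.9. The models were tested on simulated data. No sample was dropped or imputed.

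The members, the marker and pathway lists and the comparisons were chosen with earlier results of these data known. Any member could be named, but 1 that enters the counts is not reported here. Those called in a comparison, or at a mean of 5 TPM or more in an embryo (19 genes), were given values, and of the pathway lists the 4 largest called effects per comparison and direction. Alternatives changed the pseudocount, filter, normalization, blocks, summaries and embryos, and 2 that left out a single region were chosen after seeing the data.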

Additional observations from a re-analysis of the deposited data

Results flagged for a closer look

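For 9 results the slope differed among the 3 embryos by limma's moderated F test, with p-values adjusted over all genes tested. The embryos differ in stage, in the sections sampled, in genes detected per region and, for scores, in the list levels that 1 SD covers. Which of these goes with the differences cannot be told apart. Along sections, ITGA6 (adjusted p = 0.0168) had slopes of -0.54 and -0.38 log2 units at E18 (embryos 1 and 2) and of 1.96 at E20, and LAMA5 (0.0324) of 0.14, -0.16 and 1.51. Both are higher in E20 sections 6 and 7 than in sections 1 to 5, with medians of 35.5 against 10.4 TPM for ITGA6 and 15.2 against 3.94 for LAMA5.

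With the yolk sac endoderm score these genes were ITGA11 (adjusted p = 0.0434), ITGAM (0.000213), LAMA5 (0.00978) and LAMB1 (0.000593). LAMB1 had its steepest slope in the E20 embryo, at 1.19, and ITGAM in E18 embryo 1, at 0.89. ITGAM was highest, at 12.2 TPM, in E18 embryo 1 section 3 sector 5, which also had the highest level of the leukocyte list (3.55), the highest endoderm level of the E18 regions (4.83), a trophoblast level of 4.01 and CGA at 1683 TPM. Their part in the slope was not tested. ITGA11 was at 0 in 25 of 28 regions of E20 sections 1 to 5, which hold the highest levels of that list.

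With the mesenchyme score these genes were ITGA3 (adjusted p = 0.00208), ITGB8 (0.0441) and LAMA2 (1.09e-05). ITGA3 had slopes of -0.04, 0.33 and 1.29 in the 3 embryos. LAMA2 had slopes of 1.14, 1.12 and -0.03, and its highest value in the E20 embryo was 10.1 TPM, against 20.1 and 34.6 in the E18 embryos.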

How the results depend on the processing

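No paired analysis was possible because the replicate numbers only name regions in accession order, and the labels pair no regions across embryos. The main counts of called members were 7 for the stage, 2 for sections, 4 for sectors, 16 for amnion, 17 for blood, 22 for mesenchyme, 7 for endoderm, 18 for epiblast and 9 for streak. The cause of each change below was not tested beyond what the setting itself alters. The stage gave 3 without mitochondrial genes, 0 with medians over regions and 0 with E20 sections 6 and 7 only, where LAMB1 was at -0.46 and NID2 at -0.70 (limma; unadjusted counts stand above). Without 1 E18 embryo no residual degree of freedom was left for the stage. A stricter filter, which tests fewer genes, gave 1 for sections, 2 for sectors, 10 for amnion, 10 for blood and 12 for mesenchyme. Sections gave 1 without mitochondrial genes, 1 with genes detected as a covariate, 0 with separate E20 blocks (2 unadjusted) and 0 with section means (6 unadjusted); sectors gave 7 with that covariate.

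Embryo slopes tested against 0 gave 0 with limma, except mesenchyme at 9; at an unadjusted p under 0.05 there were 1 for sections, 4 for sectors, 8 for amnion, 15 for blood, 2 for endoderm, 15 for epiblast and 7 for streak. Leaving out 1 embryo gave 0 to 5 for sections, 0 to 13 for sectors, 9 to 21 for amnion, 9 to 20 for blood, 12 to 21 for mesenchyme, 0 to 11 for endoderm, 12 to 18 for epiblast and 6 to 12 for streak. Endoderm gave 1 with separate E20 blocks and 1 with section as a block, and streak 5 with section as a block. After quantile normalization streak gave 14 (1 up, 13 down) and the pairs 3. The 6 scores in 1 model gave 9 for amnion, 2 for blood, 10 for mesenchyme, 1 for endoderm and 8 for epiblast (5 up, 3 down). In that model signs changed for ITGA8 (-0.31) and LAMC1 (-0.0049) on amnion, ITGA7 (0.0029) and LAMA3 (-0.092) on blood, and ITGA11 (-0.16), ITGA9 (-0.43), ITGB2 (-0.25), ITGB4 (-0.048), LAMA1 (-0.19), LAMA2 (-0.32) and LAMB1 (-0.067) on mesenchyme. They also changed for ITGA2 (0.030), ITGA8 (0.050) and LAMA3 (0.18) on epiblast and ITGA1 (0.016) and LAMC1 (0.061) on streak. LAMA5 on epiblast was at -0.018 with separate E20 blocks and -0.015 with section as a block. Of 1468 values of called genes under all settings, 1149 kept direction and call, 299 lost the call and 20 changed sign. The TPM table gives no depth, so low genes such as LAMB3, LAMC3 and ITGB6 cannot be weighed by read number.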

Other observations

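Some members were low or at 0 in many regions. ITGB7, the partner of ITGA4 and ITGAE on lymphocytes, had at least 1 TPM in 28 of 35 regions there, in 2 of 15 of E18 embryo 1 and 4 of 36 at E20. ITGB6, an epithelial partner of ITGAV, had at least 1 TPM in 17, 0 and 3 regions of the same embryos, and LAMC3 in 23, 1 and 1. ITGB8 had at least 1 TPM in 23, 6 and 1 regions. E18 embryo 2 is also the embryo with the most genes detected, with medians of 12186 genes per region, against 10564 in E18 embryo 1 and 9051 at E20. Its part in these counts was not tested.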
